A study of Mus musculus with 7 samples.

Results

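The genes described here encode membrane transporters for sugars, myo-inositol, short organic acids and sulfate. They are the protein-coding members of the Slc2a, Slc5a, Slc13a and Slc16a families whose symbol ends in digits, and 42 of the 42256 genes in the deposited count table met that rule. They comprise 12 Slc2a, 11 Slc5a, 5 Slc13a and 14 Slc16a genes. RNA came from 7 kidney samples. The mice were adult males of mixed 129S1/Sv x C57BL/6 strain. Of these, 3 were labelled CDH11+/+ and 4 CDH11-/-, the latter standing for loss of cadherin-11, through which mesenchymal cells adhere to each other. Mice of both labels had lost a kidney, had been infused with angiotensin II (800 ng/kg/min) by implanted pump, and were killed after 4 weeks, with no uninjured group among them. The labels describe neither the allele nor littermates, and they do not state that each sample was a separate mouse, so the p-values measure the spread between these samples.

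In the kidney these proteins recover solutes from the filtrate, mostly in the proximal tubule. The Slc5a and Slc13a proteins are driven by the sodium gradient and load the cell across the apical membrane or, for some, the basolateral membrane. Most Slc2a (GLUT) proteins are facilitated carriers, and by some of them sugars then leave the cell toward the blood. The Slc16a (MCT) proteins move lactate, ketone bodies, aromatic amino acids, creatine and related molecules. The early proximal tubule (S1) uses a high-capacity sodium-glucose transporter, and later segments use a high-affinity one.

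Libraries held 72087906 to 84786351 counts, of which the 42 transporters took 0.3435% to 0.4129%. Levels are given as counts per 1000000 (CPM) on TMM-scaled library sizes, and adjusted p-values come from edgeR's quasi-likelihood test with Benjamini-Hochberg adjustment over all genes tested. A gene was called below 0.05. Cdh11 itself stood at 4.52 to 10.8 CPM under the wild-type label and at 9.56 to 11.6 CPM under the knockout label (log2 fold change 0.56, adjusted p = 0.14, edgeR). It was not called and was not lower under the knockout label, so its transcript does not bear the labels out. Whether the allele still yields transcript or labels were exchanged was not tested. Every direction below is therefore one between labels. Wild-type-labelled replicate 3 stood apart from the other libraries in Y-linked transcripts, with a summed 64.7 CPM for Uty, Kdm5d, Ddx3y and Eif2s3y against 110.8 to 144.9 CPM elsewhere, and results that rest on it are given with and without it.

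Transporter transcripts moved in both directions. In whole tissue, a change in the number of cells of a type and a change in RNA per cell cannot be told apart. Of the 42 genes, 38 passed the filter on low counts, and of these 11 rose and 9 fell in the knockout-labelled libraries, with 18 not called. That is 52.6% of the transporters tested, where 29.7% of all 17964 genes tested were called (16.8% higher and 12.9% lower). Where the mean reached 20 CPM, the shares were 65.4% of 26 transporters and 41.6% of all genes. The median log2 fold change was 0.06 over the 38 and -0.01 over all genes. The libraries of the 2 labels did not overlap for 19 of the 38 transporters (50%), against 38.5% of all genes tested. By family, 6 Slc16a genes rose and 2 fell of 13 tested (median log2 fold change 0.45), 1 Slc2a gene rose and 3 fell of 11 (median -0.25), 3 Slc5a genes rose and 3 fell of 9 (median 0.22), and 1 Slc13a gene rose and 1 fell of 5 (median 0.05). Without wild-type-labelled replicate 3, 15 transporters rose and 7 fell, where 29.3% of all genes were called.

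**Figure D1:**
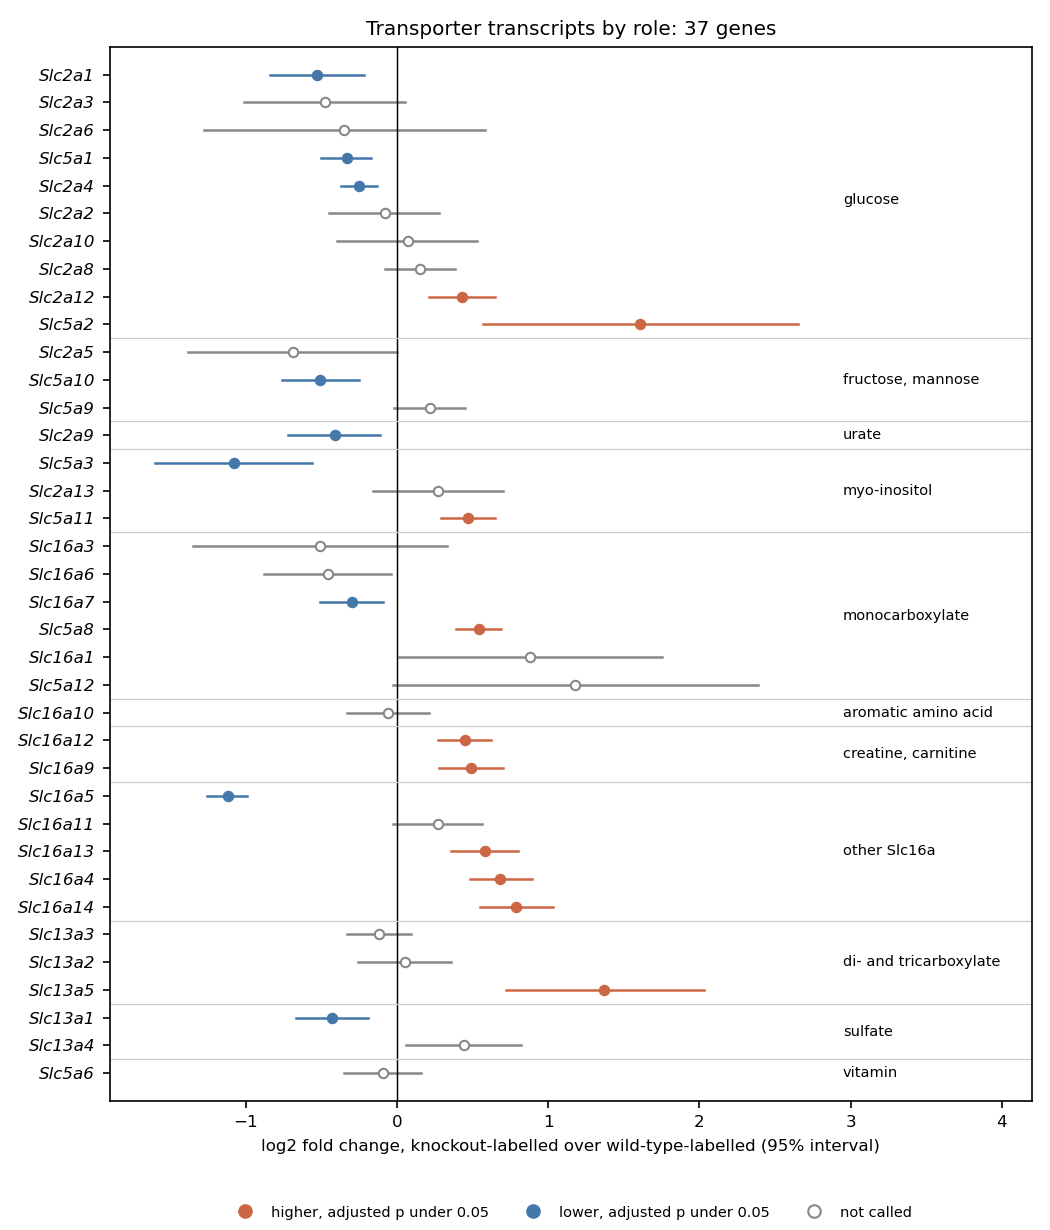
Log2 fold change, knockout-labelled over wild-type-labelled, of 37 of the tested transporters, ordered by role from top to bottom. Points are estimates and lines 95% intervals. Filled orange points mark 10 genes that rose and filled blue points the 9 that fell. Slc5a2 lies farthest to the right at 1.61 with a wide interval, and Slc16a5 lies farthest to the left at -1.12 with a narrow one.

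Among the glucose transporters, the apical high-capacity transporter SGLT2 (Slc5a2) rose while SGLT1 (Slc5a1) and the facilitated carriers GLUT1 (Slc2a1) and GLUT4 (Slc2a4) fell. Slc5a2 (mm10 chromosome 7, 128265657 to 128272430, plus strand) stood at 63.2, 50.4 and 169.2 CPM in replicates 1 to 3 of the wild-type label and at 279.9, 315.4, 277.4 and 275.3 CPM in replicates 1 to 4 of the knockout label. The groups did not overlap, and the third wild-type-labelled library lay between the other 2 and the knockout-labelled libraries. The rise was 3.04-fold (log2 fold change 1.61, SE 0.43, 95% interval 0.57 to 2.65, adjusted p = 0.0339, edgeR). Without wild-type-labelled replicate 3 it was 2.33 on the log2 scale (adjusted p = 3.6e-05, edgeR). Without any other single library it was not called, with adjusted p-values up to 0.105 (edgeR) and log2 fold changes of at least 1.30. On the opposite strand, BC017158 shares 597 exon bases with Slc5a2, or 20.6% of its exon length. The libraries were made with a directional kit, but the strand setting of the counting is not given. BC017158 had 24.0 CPM against 23.3 CPM and was not called (adjusted p = 0.689, edgeR).

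Slc5a1, the high-affinity sodium-glucose transporter of the later proximal tubule (mm10 chromosome 5, 33104219 to 33162870, plus strand), had 57.2, 61.2 and 64.9 CPM under the wild-type label and 48.7, 44.4, 47.9 and 53.2 CPM under the knockout label. All 4 knockout-labelled values were below all 3 others. It fell by 0.33 on the log2 scale (SE 0.07, adjusted p = 0.00936, edgeR). Per kilobase of exon, Slc5a2 exceeded Slc5a1 by a ratio of 1.57, 1.17 and 3.69 under the wild-type label and of 8.15, 10.1, 8.21 and 7.34 under the knockout label, so that the ranges were apart.

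GLUT1, the widely expressed basolateral carrier, is encoded by Slc2a1 (mm10 chromosome 4, 119108711 to 119137983, plus strand). Its levels were 50, 35.1 and 45.0 CPM under the wild-type label against 29.9, 25.1, 30.8 and 34.4 CPM, without overlap. It was 1.44-fold lower (adjusted p = 0.0181, edgeR), and was not called without wild-type-labelled replicate 1 (adjusted p = 0.0666, edgeR) or 3 (adjusted p = 0.0555, edgeR). GLUT2 is the carrier through which glucose leaves early proximal tubule cells. Its gene, Slc2a2, had 92.6, 110.8 and 125.8 CPM against 126.8, 113.7, 85.5 and 88.1 CPM, with a log2 difference of -0.08 and a 95% interval from -0.45 to 0.28 (adjusted p = 0.727, edgeR). GLUT4, known for its response to insulin in fat and muscle, had a small and uniform difference. Slc2a4 fell from 26.2 ± 0.502 to 22.1 ± 0.426 CPM (SD, n = 3 and n = 4), 1.19-fold (adjusted p = 0.00867, edgeR). Adipocyte markers summed to 0.03 to 0.5 CPM and skeletal muscle markers to 0.07 to 0.3 CPM over the 7 libraries, and Adipoq had no count in any of them.

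Slc2a12, another facilitated carrier (GLUT12), rose 1.35-fold from 7.39 ± 0.631 to 9.95 ± 0.87 CPM (SD, n = 3 and n = 4), with adjusted p = 0.011 (edgeR). Tbpl1, on the opposite strand, shares 407 exon bases with it (9.61% of Slc2a12) and stood at 7.84 and 7.91 CPM. The remaining glucose carriers were scarce. Slc2a8 had 7.95 to 10.5 CPM, Slc2a3 0.83 to 1.86 CPM, Slc2a10 0.62 to 0.83 CPM and Slc2a6 0.18 to 0.57 CPM, and none of these was called with all libraries. Slc2a8 was called without wild-type-labelled replicate 3 (log2 fold change 0.27, adjusted p = 0.0463, edgeR). Slc2a7 had 0 or 1 count in wild-type-labelled libraries and 2 to 6 in knockout-labelled ones, below the filter, and was not tested.

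**Figure D2:**
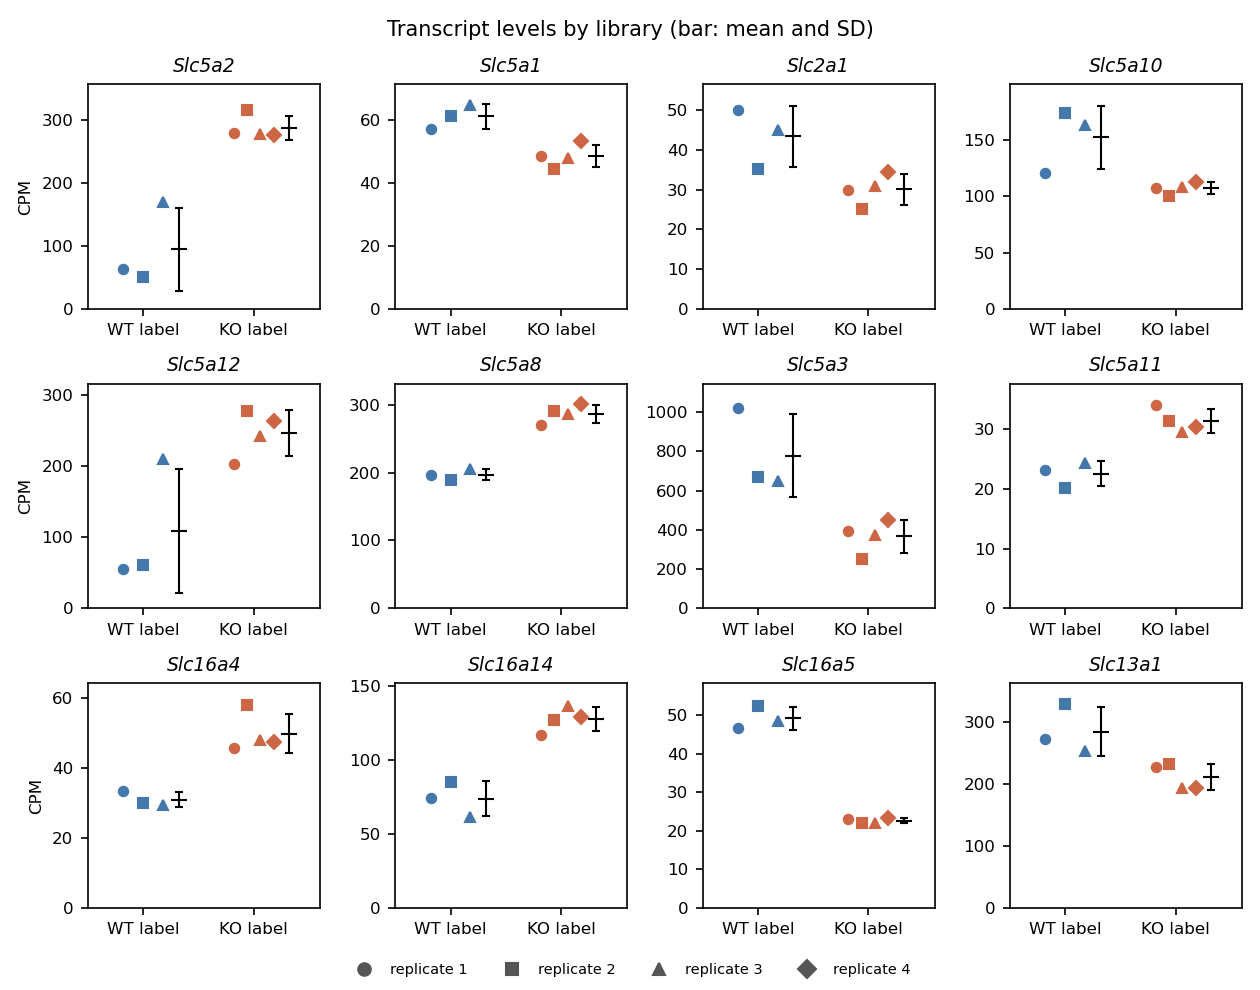
CPM of 12 transporters in each library, on axes that start at 0. Symbols mark the replicate, the black bar the group mean and its SD (n = 3 wild-type-labelled, n = 4 knockout-labelled). Wild-type-labelled replicate 3, a triangle, lies far above the other wild-type-labelled libraries for Slc5a2 (169.2 CPM) and Slc5a12 (209.8 CPM), but close to them for Slc5a8 and Slc16a4.

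Of the 3 genes for transporters of fructose and mannose, 1 fell and 2 were not called. Over all genes tested 29.7% were called, and 41.6% of those of at least 20 CPM. Slc5a10 encodes SGLT5, an apical sodium-coupled transporter of mannose and fructose (mm10 chromosome 11, 61672781 to 61720826, minus strand). It had 121.1, 174.1 and 163.1 CPM under the wild-type label and 107.1, 100.8, 108.8 and 112.9 CPM under the knockout label, without overlap, and fell 1.42-fold (SE 0.11 on the log2 scale, adjusted p = 0.00972, edgeR). Fam83g on the opposite strand shares 393 of its exon bases (16.6%) and rose from 8.36 to 13.8 CPM (adjusted p = 0.00689, edgeR). Slc2a5, the fructose carrier GLUT5, was high in 1 library. It stood at 44.7, 46.3 and 96.0 CPM under the wild-type label and at 44.7, 33.3, 42.7 and 33.6 CPM in the others. Its log2 difference was -0.69 (adjusted p = 0.123, edgeR), and -0.24 without wild-type-labelled replicate 3. SGLT4, from Slc5a9, had 21.8 ± 3.41 CPM (SD, n = 3) against 25.4 ± 1.63 CPM (SD, n = 4) and was not called (adjusted p = 0.15, edgeR), except without that same library (log2 fold change 0.32, adjusted p = 0.0424, edgeR).

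Urate is carried by the product of Slc2a9, a GLUT protein that moves urate rather than glucose. Slc2a9 had 20.6, 24.7 and 18.7 CPM under the wild-type label and 19.4, 16.1, 13.5 and 15.1 CPM under the knockout label, with overlap through knockout-labelled replicate 1. It fell by 0.41 on the log2 scale (adjusted p = 0.0463, edgeR). It was no longer called on leaving out replicate 1 or 2 of the wild-type label, or 2, 3 or 4 of the knockout label (adjusted p up to 0.154, edgeR). When the factors implied by the deposited normalized values, which vary by gene, served as offsets, the difference was -0.071 (adjusted p = 0.796, edgeR).

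The myo-inositol transporters changed in opposite directions. Slc5a3 encodes SMIT1, which accumulates myo-inositol as an osmolyte in medullary cells and is known as a target of the tonicity factor NFAT5 (mm10 chromosome 16, 92058322 to 92087473, plus strand). It had 1021.0, 668.7 and 647.4 CPM under the wild-type label and 393.8, 251.2, 373.4 and 451.5 CPM under the knockout label. Every knockout-labelled library was below every wild-type-labelled one. The fall was 2.12-fold (log2 fold change -1.08, SE 0.22, 95% interval -1.60 to -0.56, adjusted p = 0.00919, edgeR). Mrps6 lies on the same strand and shares 159 exon bases with Slc5a3 (1.46% of its exon length). It had 49.5 and 38 CPM and was not called (adjusted p = 0.0524, edgeR).

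Slc5a11 encodes SMIT2, which reabsorbs myo-inositol at the apical membrane of the proximal tubule. Its 23.1, 20.2 and 24.4 CPM under the wild-type label compared with 34.1, 31.4, 29.5 and 30.3 CPM, again without overlap. The rise was 1.39-fold (SE 0.08 on the log2 scale, adjusted p = 0.00303, edgeR). Within each library the per-length ratio of Slc5a11 to Slc5a3 was 0.0896, 0.12 and 0.149 under the wild-type label and 0.342, 0.494, 0.312 and 0.265 under the knockout label. Slc2a13, the proton-coupled myo-inositol transporter HMIT, had 3.96 to 7.81 CPM over the libraries and was not called (adjusted p = 0.318, edgeR).

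**Figure D3:**
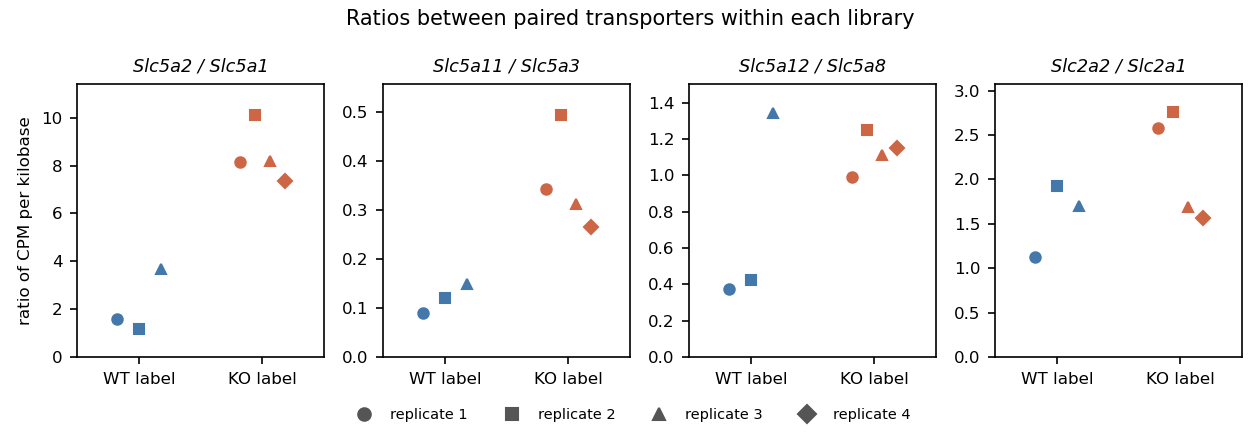
Ratio of the levels per kilobase of exon of paired transporters in each library, on axes that start at 0. Symbols mark the replicate. Slc5a2 over Slc5a1 and Slc5a11 over Slc5a3 separate the labels (1.17 to 3.69 against 7.34 to 10.1, and 0.0896 to 0.149 against 0.265 to 0.494), while Slc5a12 over Slc5a8 and Slc2a2 over Slc2a1 overlap.

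Of the genes for apical sodium-coupled lactate transporters, that for SMCT1 rose and the value for SMCT2 depended on 1 library. Slc5a8, for SMCT1 (mm10 chromosome 10, 88885992 to 88929515, plus strand), had 196.5, 188.5 and 205.8 CPM against 269.4, 291.0, 285.7 and 300.4 CPM. These groups were far apart relative to their spread, and the rise was 1.46-fold (log2 fold change 0.54, SE 0.07, adjusted p = 0.000506, edgeR). Slc5a12, for the low-affinity SMCT2 of the early proximal tubule, had 55.7, 60.6 and 209.8 CPM against 203.2, 277.3, 242.0 and 263.7 CPM. The third wild-type-labelled library lay within the knockout-labelled range. The log2 difference was 1.18 with a 95% interval from -0.03 to 2.39 (adjusted p = 0.129, edgeR), and 2.07 without that library (adjusted p = 5.5e-05, edgeR).

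The 6 listed markers of the early proximal tubule differed in how far they set this library apart. Gatm, a creatine synthesis enzyme, had 101.1, 73.9 and 200.8 CPM under the wild-type label and 386.0 to 630.5 CPM in the others. The neutral amino acid transporter Slc6a19 had 48.4, 62.6 and 125.6 CPM against 158.1 to 204.2 CPM, and the phosphate transporter Slc34a3 had 3.26, 2.35 and 7.43 CPM against 16 to 20.5 CPM. In these 3 genes the third wild-type-labelled library lay well above the other 2. It was higher by less for the bicarbonate transporter Slc4a4 (860.1, 1035.1 and 1115.2 CPM) and the amino acid transporter Slc7a7 (36.5, 40.6 and 52.1 CPM), and was the lowest of the 3 for Hnf4a (665.9, 748.6 and 636.8 CPM). The 6 markers of the late segment S3 were also mixed. That library was the highest of the 3 for Slc22a7 (5.16, 4.03 and 8.54 CPM) and Slc22a13 (46.3, 36.5 and 53.2 CPM), the lowest for Slc7a13 (40.1, 15.6 and 14.8 CPM) and Atp11a (520.9, 364.4 and 354.5 CPM), and between the others for Cyp7b1 and Slc7a12. The part of these markers in the transporter results was not tested.

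The proton-coupled lactate carriers gave smaller or less uniform differences. Slc16a7, for the high-affinity MCT2, had 251.2, 226.2 and 252.1 CPM against 193.2, 201.3, 171.3 and 225.2 CPM, and fell 1.23-fold (adjusted p = 0.0384, edgeR). It was no longer called on leaving out replicate 1 or 3 of the wild-type label, or 1, 2 or 3 of the knockout label (adjusted p up to 0.0969, edgeR). Slc16a1, for the widely expressed MCT1, was uneven within the knockout label. It had 13.2, 14.1 and 22.4 CPM against 15.5, 35.2, 30.7 and 41.1 CPM, a log2 difference of 0.88 (95% interval 0.01 to 1.75, adjusted p = 0.118, edgeR), and was called without knockout-labelled replicate 1 (log2 fold change 1.10, adjusted p = 0.011, edgeR). Slc16a6, for MCT7, known in zebrafish as a ketone body exporter, had 26.2 ± 2.92 CPM (SD, n = 3) against 19.1 ± 4.62 CPM (SD, n = 4) and was not called (adjusted p = 0.0934, edgeR). DESeq2 called it (adjusted p = 0.0299), as did edgeR once knockout-labelled replicate 2 was left out (adjusted p = 0.032). Amz2, on the opposite strand, shares 1052 of its exon bases (21.5%) and rose. Slc16a3, for the lactate exporter MCT4 of glycolytic cells, stood at 0.39 to 1.05 CPM. Slc16a8, for the retinal MCT3, had 2 to 14 counts per library and was not tested.

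Slc16a10, for the aromatic amino acid transporter TAT1, had 44.6 ± 9.23 CPM (SD, n = 3) and 42.7 ± 1.5 CPM (SD, n = 4), a log2 difference of -0.06 with a 95% interval from -0.33 to 0.21 (adjusted p = 0.723, edgeR).

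Slc16a9, linked to carnitine transport in human studies, had 117.4, 95.6 and 124.5 CPM against 148.9, 158.0, 156.2 and 168.4 CPM. All knockout-labelled values were above the others, a 1.40-fold rise (adjusted p = 0.00459, edgeR). The creatine transporter gene Slc16a12 had 77.5, 77.8 and 83.3 CPM against 106.5, 123.0, 102.5 and 102.2 CPM, and rose 1.36-fold (adjusted p = 0.00294, edgeR).

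Of 5 less studied Slc16a genes 3 rose and 1 fell, where 29.7% of all genes were called, and 41.6% of those of at least 20 CPM. Slc16a5, for MCT6, which carries drugs such as bumetanide (mm10 chromosome 11, 115462474 to 115474398, plus strand), had 46.6, 52.4 and 48.6 CPM under the wild-type label and 23.0, 22.1, 21.9 and 23.2 CPM under the knockout label. The groups were far apart relative to their spread. It fell 2.18-fold (log2 fold change -1.12, SE 0.06, adjusted p = 1.5e-05, edgeR). Gm11695, on the opposite strand over 104 of its exon bases (2.81%), went from 3.58 to 2.34 CPM. Slc16a14, an orphan transporter, had 74.7, 85.4 and 61.5 CPM against 117.4, 127.1, 137.0 and 129.6 CPM, and rose 1.73-fold (adjusted p = 0.000904, edgeR). Slc16a4, also without an established substrate, had 33.3, 30.1 and 29.4 CPM against 45.6, 58.0, 48.0 and 47.5 CPM, a 1.61-fold rise (adjusted p = 0.000829, edgeR). Neither group pair overlapped.

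Slc16a11 and Slc16a13 are neighbours on chromosome 11, on opposite strands and separated by 371 bases. Slc16a13, whose product moves lactate with protons, had 35.2, 42.6 and 40.1 CPM against 51.8, 66.3, 56.0 and 61.1 CPM, and rose 1.5-fold (adjusted p = 0.00259, edgeR). Slc16a11, for MCT11, had 6.80, 7.34 and 7.57 CPM against 10.3, 8.76, 8.99 and 6.85 CPM, with a log2 difference of 0.27 (adjusted p = 0.155, edgeR). Knockout-labelled replicate 4 lay within the wild-type-labelled range, and without it Slc16a11 was called (log2 fold change 0.37, adjusted p = 0.0292, edgeR). It was called under 3 of 18 alternatives.

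**Figure D4:**
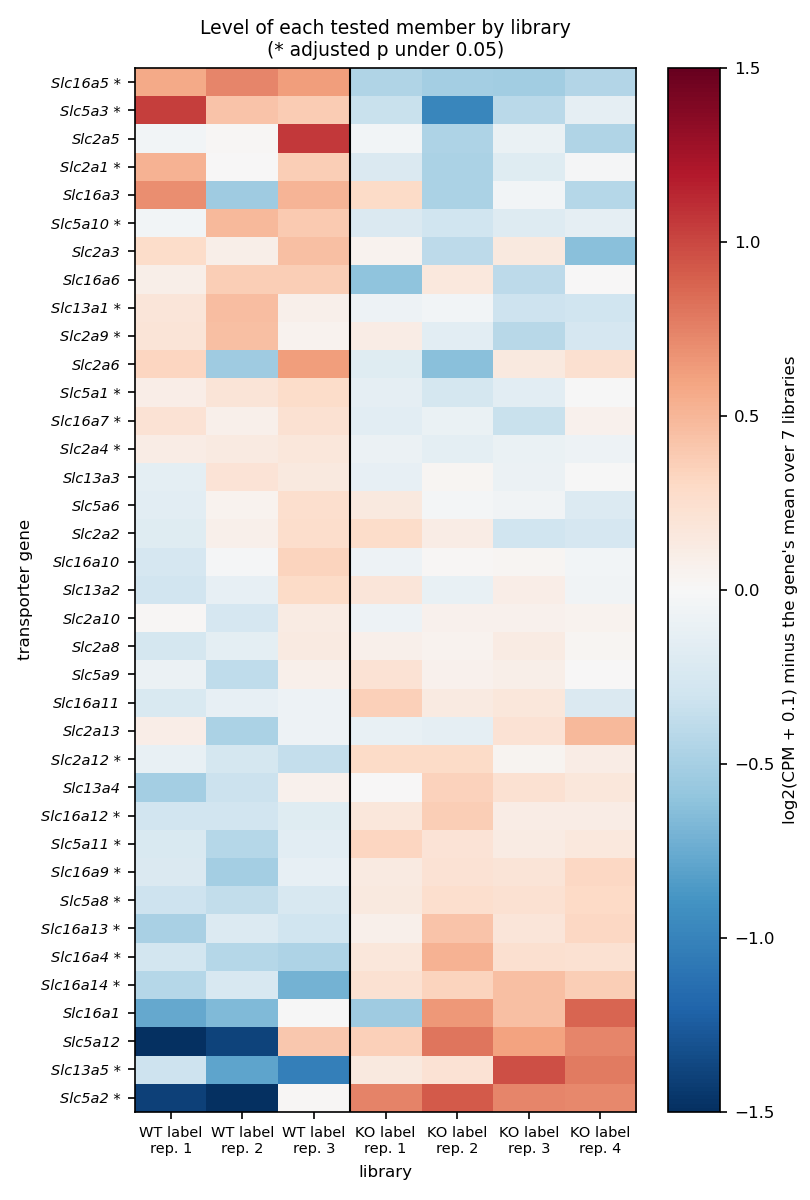
Level of each of 37 tested transporters in each library, as log2(CPM + 0.1) minus the gene's mean over the 7 libraries, with genes ordered by fold change and called genes starred. The colour scale ends at 1.5 in both directions. Most starred rows change colour at the line between the labels, and wild-type-labelled replicate 3 differs from the other wild-type-labelled libraries in the rows of Slc5a2, Slc5a12 and Slc2a5.

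The most abundant transporters of dicarboxylates did not differ beyond their spread. Slc13a3, for the basolateral succinate and alpha-ketoglutarate transporter NaDC3, had 708.5, 898.8 and 861.3 CPM against 714.7, 797.9, 732.3 and 775.6 CPM. The log2 difference was -0.12 with a 95% interval from -0.33 to 0.09 (adjusted p = 0.352, edgeR). Slc13a2, for the apical citrate and succinate transporter NaDC1, had 33.2, 37.2 and 49.6 CPM against 45.8, 37.6, 43.3 and 38.9 CPM, a log2 difference of 0.05 (95% interval -0.26 to 0.36, adjusted p = 0.81, edgeR). Slc13a5, for the citrate transporter NaCT best known in liver, was scarce and rose. Its 1.01, 0.70 and 0.58 CPM under the wild-type label compared with 1.43, 1.51, 2.61 and 2.28 CPM, without overlap, which was 2.59-fold (adjusted p = 0.00747, edgeR). These levels rest on 50 to 226 counts per library. With these factors as offsets the log2 fold change of Slc13a5 was 1.044 (adjusted p = 0.058, edgeR).

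Apical sulfate uptake in the proximal tubule is the known role of Slc13a1 (NaS1, mm10 chromosome 6, 24088283 to 24168092, minus strand). It had 272.2, 328.7 and 253.0 CPM against 227.2, 232.7, 193.3 and 193.7 CPM. The groups were apart but close, and the fall was 1.34-fold (adjusted p = 0.0159, edgeR). Without wild-type-labelled replicate 2 the adjusted p was 0.0538 (edgeR). The other sulfate transporter, Slc13a4, had 1.93 to 2.92 CPM against 2.80 to 3.56 CPM and was not called (adjusted p = 0.0815, edgeR), except without wild-type-labelled replicate 3 (adjusted p = 0.0195, edgeR). Of the vitamin, iodide and choline transporters, Slc5a6, which takes up biotin and pantothenate, had 13.8, 15.9 and 18.4 CPM against 17.0, 15.1, 14.8 and 13.3 CPM and was not called (adjusted p = 0.573, edgeR). The iodide transporter gene Slc5a5 had 5 to 17 counts per library and was not tested. Slc5a7, for the choline transporter of neurons, had no count in any library, which allows up to 0.0347 to 0.0425 CPM per library at 3 counts.

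The order of levels among the transporters was compared per kilobase of exon. Slc13a3 led under both labels, with 158 ± 19.3 CPM per kilobase (SD, n = 3) and 145 ± 7.34 CPM per kilobase (SD, n = 4). Under the wild-type label Slc5a3 (71.4 ± 19.2) and Slc5a10 (64.6 ± 11.8) followed, within their spread of each other, then Slc5a8 (36.9 ± 1.62), Slc13a1 (36.8 ± 5.1) and Slc5a2 (32.5 ± 22.5), which also overlapped. The order below Slc13a3 depended on the length used. With the longest annotated transcript in place of all exons, Slc13a1 came second, followed by Slc5a3, Slc5a10, Slc5a2 and Slc5a8. Under the knockout label, by exon length, Slc5a2 came second at 99.1 ± 6.56 CPM per kilobase (SD, n = 4), above Slc5a12 (60.7 ± 7.96) and Slc5a8 (53.8 ± 2.44), which did not differ from each other beyond their spread. In the same units Slc5a3 was ninth there at 33.7 ± 7.72.

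**Figure D5:**
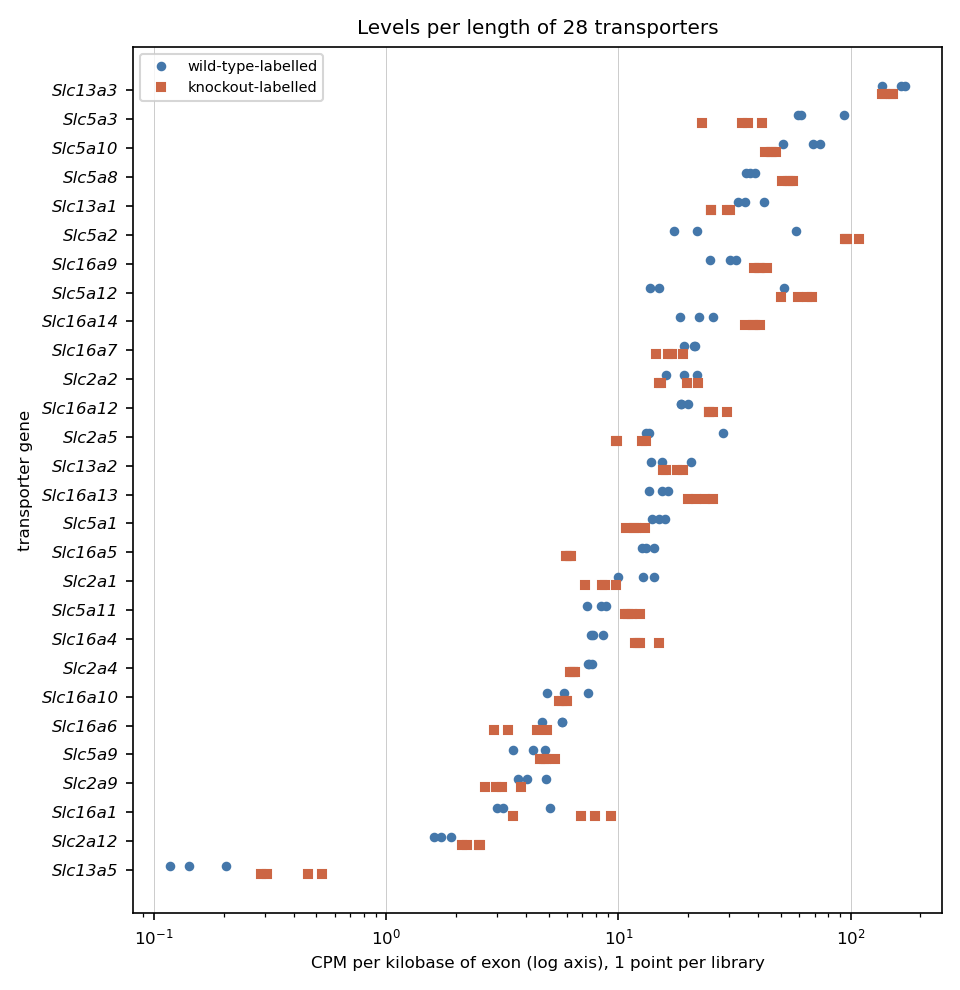
CPM per kilobase of exon on a log axis for 28 transporters that were called or had a mean of at least 20 CPM, in order of the wild-type-labelled mean, with 1 point per library. Slc13a3 is the highest of the 28 under both labels. Slc5a2 spans a wide range under the wild-type label and a narrow one near 99.1 under the knockout label.

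RefSeq promoters (GRCm38.p6) were at hand for 31 of the 42 genes, Slc5a2 and Slc5a12 not among them. The 250 bases before each start site were searched on both strands for an HNF4 core (CAAAGTCCA), an E-box (CACGTG) and an androgen receptor half-site (AGAACA). The 31 genes had 34 promoters. The HNF4 core occurred in 0 of the 34 (0.384% of all 32851 promoters), the E-box in 4 (6.02%) and the androgen receptor half-site in 5 (16.1%). Shown here are a sodium-coupled sugar transporter gene that fell (Slc5a1) and Slc16a genes that rose (Slc16a12, Slc16a4), as stretches of those 250 bases, with matches in capitals. No match overlapped another. A match is a run of letters and no evidence of binding.
Slc5a1, chr5:33103969-33104218, plus strand, E-box and androgen receptor half-site: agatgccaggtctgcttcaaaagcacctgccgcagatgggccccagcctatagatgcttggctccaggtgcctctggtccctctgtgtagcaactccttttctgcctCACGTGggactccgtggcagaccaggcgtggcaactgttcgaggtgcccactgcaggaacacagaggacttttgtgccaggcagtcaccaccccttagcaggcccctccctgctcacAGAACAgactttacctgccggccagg
Slc16a12, chr19:34747459-34747578, minus strand, E-box and androgen receptor half-site: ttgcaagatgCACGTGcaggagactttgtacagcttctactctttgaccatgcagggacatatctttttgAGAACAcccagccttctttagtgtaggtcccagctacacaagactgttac
Slc16a4, chr3:107291110-107291229, plus strand, androgen receptor half-site on the other strand: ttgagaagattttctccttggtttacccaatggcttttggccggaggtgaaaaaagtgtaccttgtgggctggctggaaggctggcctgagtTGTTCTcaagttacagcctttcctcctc

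Counts of partner genes stand beside a share of 16.8% higher and 12.9% lower over all genes tested, or 41.6% called in either direction among those of at least 20 CPM, and no test compared them with it. Of 20 tested accessory, regulatory and sugar-metabolism genes, 9 rose and 2 fell (55% called). Pdzk1, a scaffold of apical transporters, rose 1.83-fold, Slc9a3r1, the scaffold NHERF1, 1.37-fold, and Sord, which oxidizes sorbitol to fructose, 1.69-fold. Pdzk1ip1, the SGLT2 accessory protein MAP17, had 144 ± 17.8 CPM (SD, n = 3) and 187 ± 9.45 CPM (SD, n = 4) and rose 1.30-fold (adjusted p = 0.0113, edgeR). Those that fell were the hexokinases Hk1 (1.38-fold) and Hk2 (2.70-fold, from 2.65 to 0.979 CPM). Pdzk1ip1, Hk1 and Hk2 were named after their values were seen. The glucose transporter relatives Slc5a4a and Slc5a4b, which the symbol rule leaves out, had means of at most 0.104 CPM under either label.

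Around myo-inositol, 2 of 9 tested genes rose and 2 fell (44.4% called). Miox, the oxygenase that degrades myo-inositol in the proximal tubule, rose from 419.7 ± 89.2 to 909 ± 102 CPM (SD, n = 3 and n = 4), 2.17-fold (adjusted p = 0.000801, edgeR). Akr1b3, aldose reductase, rose 1.5-fold. Nfat5 fell 1.17-fold (adjusted p = 0.0398, edgeR) and Impa2, an inositol monophosphatase, 1.43-fold. The taurine transporter gene Slc6a6 had 525 ± 40.8 CPM (SD, n = 3) and 439 ± 41.8 CPM (SD, n = 4) and was not called (adjusted p = 0.0642, edgeR). Slc6a12, from the same list, was not called either (adjusted p = 0.81, edgeR). It stood at 0.01 CPM in wild-type-labelled replicate 2 and 0.06 CPM in knockout-labelled replicate 2, and at 1.19 to 2.44 CPM elsewhere. Slc6a6 and Slc6a12 were named after their values were seen.

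For monocarboxylates, 11 of 23 tested genes rose and 3 fell (60.9% called). Ldha and Ldhd, lactate dehydrogenases for the L- and D-forms, rose 1.79-fold and 2.27-fold, and the ketone-body enzymes Oxct1 and Bdh1 rose 1.63-fold and 1.69-fold (adjusted p of 7.9e-05 to 0.000718, edgeR). Bsg, the basigin chaperone of MCT1 and MCT4, rose 1.21-fold from 199 ± 1.33 to 239.7 ± 4.82 CPM (SD, n = 3 and n = 4), while Emb, the embigin chaperone of MCT2, fell 1.41-fold. Bsg and Emb were named after their values were seen. For citrate, succinate and sulfate, 7 of 15 rose and 2 fell (60% called). The anion exchanger gene Slc26a6 rose 2.02-fold, the organic anion transporter gene Slc22a6 1.5-fold and sulfite oxidase, Suox, 1.36-fold, while Slc22a8 fell 1.83-fold. Around urate, 1 of the 8 listed genes was not matched and 6 were tested, of which 4 rose and 2 fell. Slc17a3 rose 2.41-fold, Slc22a12, for the urate reabsorber URAT1, 1.45-fold and Slc17a1 1.46-fold, whereas Abcc4 fell 2.79-fold (adjusted p = 4.5e-05, edgeR).

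Markers of several kidney cell types also differed between the labels. Over all genes tested 16.8% were higher and 12.9% lower, and 41.6% were called among those with a mean of at least 20 CPM. No test compared the marker counts with these shares. General proximal tubule markers rose in 4 of 6 with 0 lower, S1 markers in 5 of 6 with 0 lower, S2 markers in 2 of 4 with 1 lower, and S3 markers in 4 of 6 with 1 lower. The summed level of S3 markers was 469.8 to 720.9 CPM under the wild-type label and 2252.7 to 2425.8 CPM under the knockout label, and that of S1 markers 1715.3 to 2137.9 CPM and 2476.7 to 2945.9 CPM. Most of the S1 sum was Slc4a4 and Hnf4a. Slc4a4 had 860.1 to 1115.2 CPM against 1187.1 to 1361.0 CPM and rose. Hnf4a had 636.8 to 748.6 CPM against 578.6 to 677.8 CPM and was not called. Most of the S3 sum was Atp11a (354.5 to 520.9 CPM against 1575.2 to 1789.0 CPM). Slc7a13, Slc22a7 and Cyp7b1 rose as well, while Slc7a12 fell 7.07-fold and Slc22a13 was not called. Podocyte, principal cell, intercalated cell and endothelial markers fell in 4 of 5, 4 of 5, 3 of 5 and 3 of 6, with 0 higher in each. Podocyte markers summed to 402.8 to 498.3 CPM against 249.3 to 366.9 CPM. Thick ascending limb markers were 1 higher and 1 lower of 5, though their sum was 3208.3 to 4270.1 CPM against 2555.9 to 3151.5 CPM. Distal convoluted tubule markers were 0 higher and 1 lower of 4, with sums of 2513.4 to 3224.2 CPM against 1653.0 to 2148.8 CPM. Most of the latter sum was Slc12a3 (2157.8 to 2866.7 CPM against 1188.6 to 1574.1 CPM), the marker that fell. Macrophage markers were 1 higher and 0 lower of 5, and fibroblast markers 1 higher and 1 lower of 5. Smooth muscle, lymphocyte and erythroid markers had 0 called. The part of these shifts in the transporter results was not tested.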

How the data were processed

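Expected counts per gene were deposited by the authors as whole numbers, 1 column per library, and no rounding was needed. DRAGEN, DESeq2 and mm10 are named, without versions, in the submitters' processing notes. Neither the annotation release nor the strand setting is given in the sources used here. A table of normalized signal values was deposited as well. Its ratio to the counts varies from gene to gene within a library, and it entered only as alternatives. Symbols, positions and exon lengths came from GENCODE M21, in which all 42256 identifiers matched.

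Genes were filtered with filterByExpr, scaled by TMM and tested with edgeR 4.0.16 (R 4.3.3) by a 2-sided quasi-likelihood test with robust estimation, over 17964 genes and without covariates. Intervals of 95% use the SE and the degrees of freedom of the fit. In simulated counts 67, 67 and 66 of 17754 genes were changed by 0.5, 1 and 2 on the log2 scale. The test recovered 41.8%, 85.1% and 98.5% of them, and 7.4% of its calls were unchanged genes. Far fewer genes were changed there than were called in these data, so these shares do not carry over directly. No pair of libraries agreed within sampling noise (median chi-square per gene at least 2.69). Replicate numbers follow the order of deposit and pair nothing. All called members, and members with a mean of at least 20 CPM, were named, with values per library for the 12 largest changes and the most abundant member of each role, and up to 4 called genes of each partner list. Some results under this rule are not reported here, though counts include them. Members, lists, tests and alternatives were chosen with earlier results of these data known. Alternatives used DESeq2 1.42.0, limma 3.58.1 and sva 3.50.0. Summaries used Python 3.11.15.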

Additional observations from a re-analysis of the deposited data

Results flagged for a closer look

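In the 4 knockout-labelled libraries, Slc5a2 stood at 315.4 CPM in replicate 2, with the other 3 at 275.3 to 279.9 CPM, a gap to the nearest value that was 0.884 of the whole range. Slc2a10 stood at 0.71 CPM in replicate 1, below the other 3 at 0.79 to 0.80 CPM, with a gap of 0.904 of the range. Chance alone flags about 1 in 20 such groups, and 38 were examined. The wild-type-labelled group of 3 was too small for this check.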

How the results depend on the processing

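Across 18 alternatives, all 20 called transporters kept their direction, and 13 kept their call under each of them. Over the 29 transporters called or with a mean of at least 20 CPM 485 of 522 values stayed on the same side of the threshold with the same sign, 25 lost a call and 6 gained one. The number called was 14 at an adjusted p under 0.01 (5 of them lower, against 9) and 22 under 0.1, and 18 to 22 over the other tools, scalings and filters. Leaving out each library in turn gave 16 to 22 called, 10 to 15 higher and 6 to 8 lower, and 32 to 45 partner genes called (24 to 34 higher, 8 to 11 lower) of 43 (32 higher, 11 lower). Uncalled transporters changed sign as follows. Slc13a2 ranged from -0.078 to 0.226 on leaving out each library, and was at -0.003 without knockout-labelled replicate 1. Slc16a10 ranged from -0.201 to 0.099, and was at 0.051 with limma-voom and 0.009 on the deposited normalized values. Slc2a2 ranged from -0.202 to 0.017. Each of the 3 had its highest value without wild-type-labelled replicate 3. Slc5a2 was not called without the low-count filter (adjusted p = 0.0832, edgeR), and Slc13a5 and Slc2a12 were not called on the deposited normalized values (adjusted p = 0.0537 and 0.0509, limma). Slc5a12 was called by limma-voom with quality weights (1.754, adjusted p = 0.0161). Those weights were 0.5 for wild-type-labelled replicate 3 and 0.919 to 1.526 for the other libraries. The cause was not tested. Slc13a3 held 19.7% of the summed level per kilobase of all 42 transporters, and 23.7% when lengths were those of the longest transcript. No paired analysis was possible because the labels give no replicate numbers that tie libraries of the groups together. With 3 and 4 libraries, changes of 0.5 on the log2 scale were often missed in simulation. The simulation changed far fewer genes than were called in these data, so the share missed here may differ.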
